A study of Mus musculus with 5 samples.

Results

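The genes described here encode tubulins, microtubule-associated proteins (MAPs), stathmins and a few partners of microtubules in growth cones. They were chosen by name: 15 genes called Tuba or Tubb with a number, and 25 genes of the MAP, end-binding, doublecortin, stathmin, tubulin cofactor and collapsin response mediator families with Gap43. All 40 were found among the 21801 genes measured, and all 40 lay above 0 in at least 1 library. RNA was sequenced from 5 libraries of mouse NECs, the neuroepithelial progenitors that line the embryonic brain and divide before neurons form. The series is about the developing neocortex, the cells are labelled neural progenitors and said to be purified, and there is no treatment, genotype or second group. The sources used here do not state age, strain or how the cells were purified. Whether each library had its own embryo is not said, so a p-value covers the spread of these 5 samples alone, and that spread may be technical.

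Microtubules are polymers of alpha- and beta-tubulin dimers. In a dividing progenitor they form the spindle and the apical-basal array, and in a neuron they fill axon and dendrites. Vertebrates carry several genes for each tubulin, called isotypes, which differ mostly at the acidic end of the protein. Some isotypes are made in nearly every cell, while Tubb3 is a classical marker of young neurons. MAPs bind along the polymer, end-binding proteins track its growing plus end, and stathmins bind free dimers and destabilise the polymer.

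The unit is FPKM, fragments counted for each kilobase of transcript and each 1000000 reads mapped, and a library summed to between 747034 and 847625 FPKM. Reads behind a gene were estimated from the steps between low values: Stmn4, near 1 FPKM, had about 14.9 to 49.0 reads in a library and Stmn2 had 171 to 554. A level is given as the mean FPKM ± SD of 5 libraries (n = 5), and values by library are in the order of replicates 1 to 5. Genes were called above or below 1 FPKM with limma on log2(FPKM + 1), at a Benjamini-Hochberg adjusted p under 0.05 over all genes. Among 12 neural progenitor markers 11 were called above 1 FPKM, with Prom1, an apical membrane protein, highest at 88.1 ± 11 FPKM. Muscle markers were low, with all 6 called below the level and the highest, Actc1, at 0.508 ± 0.333 FPKM. Markers of other cell types were measured too, and most lists held genes on both sides of the level. The highest gene of each list was Uchl1 for neurons (46.2 ± 7.38), Pou4f1 for peripheral neurons (7.71 ± 1.19), Lum for mesenchyme (42.6 ± 21.9), Krt18 for surface ectoderm (62.3 ± 11.8), Tfap2b for neural crest (13.3 ± 3.82), Pecam1 for endothelium (3.32 ± 0.456) and Hbb-y for blood (1.79 ± 1.06), a list in which none of 6 genes was called above 1 FPKM. In such bulk samples fewer cells of a type and less RNA per cell cannot be told apart.

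Of the 40 members 27 were called above 1 FPKM, against 52.3% of all 19706 genes tested, and 9 were called below, against 41.4% of all genes. As a share, 67.5% of members lay above and 22.5% below, and 4 were called neither way. The median of the members' mean levels was 14.9 FPKM, beside 1.79 over all genes tested. Their summed FPKM was 1.07% to 1.16% of that of a library. Levels ran from Tubb5 at 1864 FPKM to Tubb1, which was listed at 0 in 4 libraries.

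**Figure D1:**
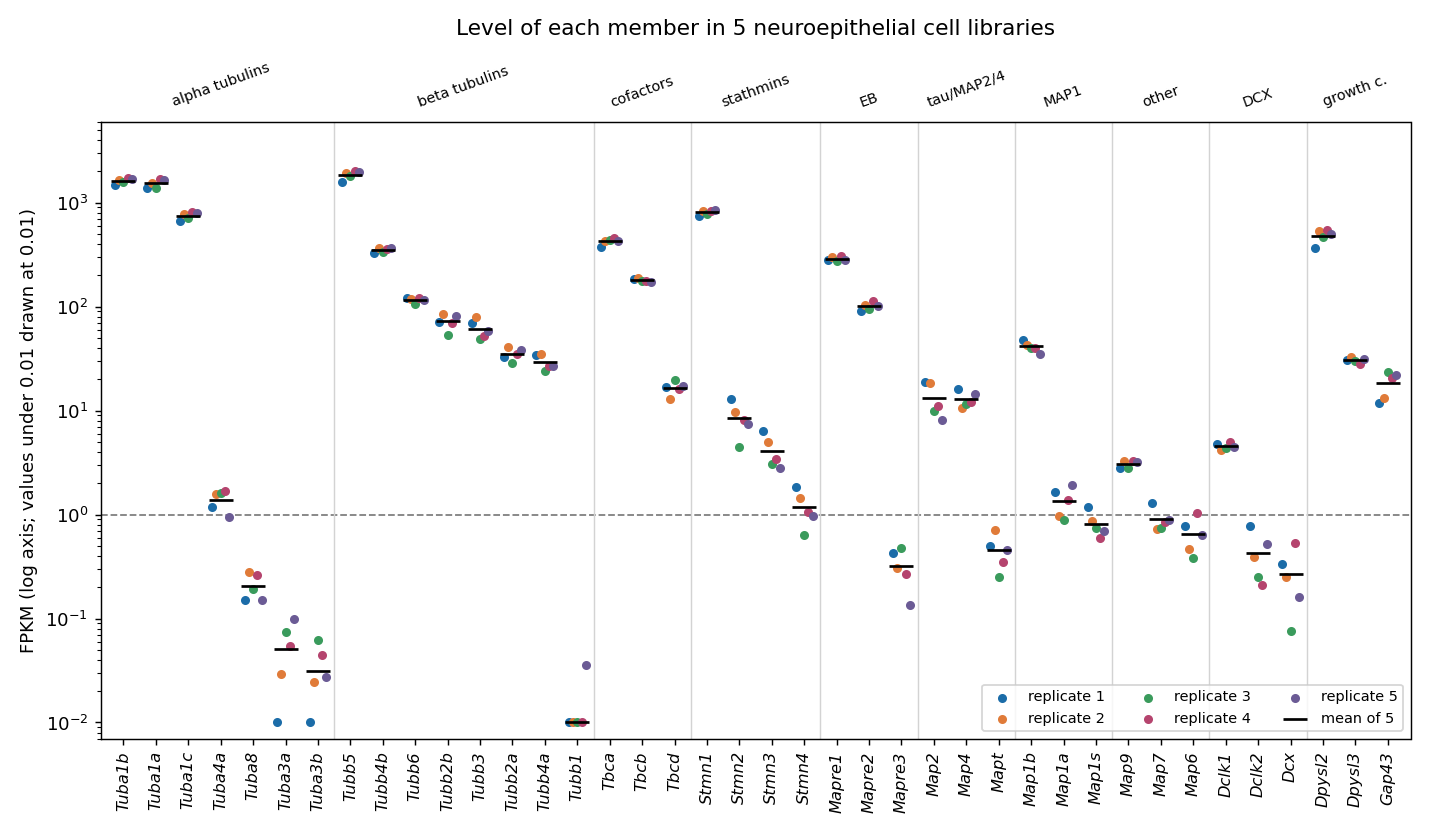
Level of each of the 40 members in each library. The vertical axis is FPKM on a log scale, the coloured points are the 5 replicates, the black bars are their means, the dashed line marks 1 FPKM, values under 0.01 are drawn at 0.01, and members are grouped by role (EB, end-binding proteins; DCX, doublecortin family; growth c., growth cone proteins). Tubb5 and Tuba1b lie at the top at 1864 and 1626 FPKM, and within a family the lowest gene lies far under the highest.

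The alpha-tubulin transcripts were almost wholly those of 3 neighbouring genes on chromosome 15, Tuba1a, Tuba1b and Tuba1c. Tuba1b (ENSMUSG00000023004, mm10 chromosome 15, 98931425 to 98934565) stood at 1466, 1668, 1569.7, 1746 and 1681 FPKM. Tuba1a, the isotype best known from migrating neurons and from human cortical malformations (98949837 to 98953703), stood at 1376, 1558, 1392, 1697 and 1646 FPKM. Tuba1c (99029891 to 99038110) stood at 661, 778, 712, 814 and 794 FPKM. All 3 were lowest in replicate 1 and highest in replicate 4. Rescaled to an equal FPKM sum they were highest in replicate 5, but rescaled by median ratio in replicate 4. Tuba1a was lowest in replicate 3 under both rescalings tried. Tuba1b led and Tuba1c came last in each library, and in the order Tuba1b, Tuba1a, Tuba1c they made up 41.6 ± 0.764%, 39.2 ± 0.838% and 19.2 ± 0.224% of the summed alpha-tubulin FPKM. Together they held 99.95% to 99.97% of it. Tuba1b exceeded Tuba1a by 0.09 ± 0.06 on the log2(FPKM + 1) scale in 5 of 5 libraries. Each of the 19 pairs of members compared was tested by flipping signs exactly, two-sided, and every pair with 5 of 5 libraries on 1 side had the smallest p that this exact test can give, 0.063 (adjusted 0.066), so no pair could pass 0.05.

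Little sequence separates these genes. The coding sequences of Tuba1a and Tuba1b were identical at 1333 of 1356 bases (98.3%), and 78.3% of the 75-base windows of the Tuba1b transcript, the length of the reads, also occurred in a transcript of another gene. The share was 70.5% for Tuba1a and 56.7% for Tuba1c. How reads with several matches were shared out is not given, and the windows of Tuba1b were shared with 15 other genes and those of Tuba1a with 14, so both the shares and the sum are uncertain.

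The other alpha-tubulin genes were scarce. Tuba4a, an isotype whose gene encodes no final tyrosine, stood at 1.18, 1.57, 1.6, 1.67 and 0.957 FPKM. Its mean of 1.39 ± 0.310 was called above 1 FPKM (log2 difference 0.25, SE 0.09, limma adjusted p = 0.031), but the call was lost without replicate 2 (0.22), replicate 3 (0.22) or replicate 4 (0.21). The level is uncertain, because 47.2% of the windows of its longest transcript also lay in transcripts of the neighbouring gene Stk16. Tuba8 was called below the level at 0.207 ± 0.0619 FPKM. Tuba3a, known from testis, was listed at 0, 0.0292, 0.0741, 0.0539 and 0.0992 FPKM. Tuba3b, its near copy, was listed at 0, 0.0243, 0.0616, 0.0448 and 0.0275. These amount to at most about 2.99 and 1.98 reads in a library. Tuba1b exceeded Tuba4a by 9.42 ± 0.19 log2 units in 5 of 5 libraries.

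Beta-tubulin was more mixed, with 7 of 8 genes called above 1 FPKM. Tubb5, a widely made isotype that is abundant in dividing cells (ENSMUSG00000001525, chromosome 17, 35833921 to 35838306), stood at 1586, 1919.8, 1819.8, 2017 and 1977 FPKM, the highest level of all members. Tubb4b, which is widely made and rich in cilia, stood at 331, 364, 336, 361 and 367 FPKM. Tubb6, on chromosome 18, stood at 121, 119, 105, 120.1 and 117 FPKM. These 3 widely made isotypes held 73.6 ± 1.99%, 13.9 ± 0.478% and 4.63 ± 0.442% of the summed beta-tubulin FPKM.

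The rest came from 4 isotypes known from neurons, and from Tubb1. Which cells made them here was not tested. Tubb2b, needed in migrating cortical neurons, stood at 70.9, 85.7, 53.1, 69.3 and 80.9 FPKM. Tubb3 (ENSMUSG00000062380, chromosome 8, 123411424 to 123422015) stood at 69.5, 80.2, 48.3, 52.3 and 57.8 FPKM. Both were highest in replicate 2 and lowest in replicate 3. Tubb2a, the close relative of Tubb2b, stood at 33.1, 40.9, 28.7, 35.3 and 38.1 FPKM, with the same libraries at both ends. Tubb4a, best known from oligodendrocytes and neurons of the adult brain, stood at 34.2, 35.0, 24.0, 27.1 and 27.0 FPKM. The 4 genes together held 9.25%, 9.14%, 6.38%, 6.86% and 7.65% of the beta-tubulin FPKM, so the share was higher in replicates 1 and 2 than in each of the others. The beta-tubulin sum itself was lowest in replicate 1, at 2245 FPKM against 2665 in replicate 5. Between these libraries Tubb2a and Tubb2b were lower in replicate 1, and Tubb3 and Tubb4a were higher. Tubb1, the isotype of platelets, was listed at 0 in replicates 1 to 4 and at 0.0359 in replicate 5, the value of about 1 read.

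Tubb5 exceeded Tubb3 by 4.92 ± 0.36 log2 units in 5 of 5 libraries, and the ratio of their FPKM ran from 22.8 to 38.6. Tubb4b exceeded Tubb4a by 3.55 ± 0.24, Tubb2b exceeded Tubb2a by 1.00 ± 0.09, and Tubb6 exceeded Tubb3 by 0.93 ± 0.25, each in 5 of 5 libraries. Tubb3 was called above 1 FPKM (log2 difference 4.94, SE 0.10, limma adjusted p = 1.49e-09), and its share of the beta-tubulin FPKM was 2.45 ± 0.567%. Alpha-tubulin summed to 3914 ± 314 FPKM and beta-tubulin to 2530.45 ± 193. The ratio of the sums was 1.55 ± 0.0296 and lay between 1.51 and 1.59 in all 5 libraries.

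**Figure D2:**
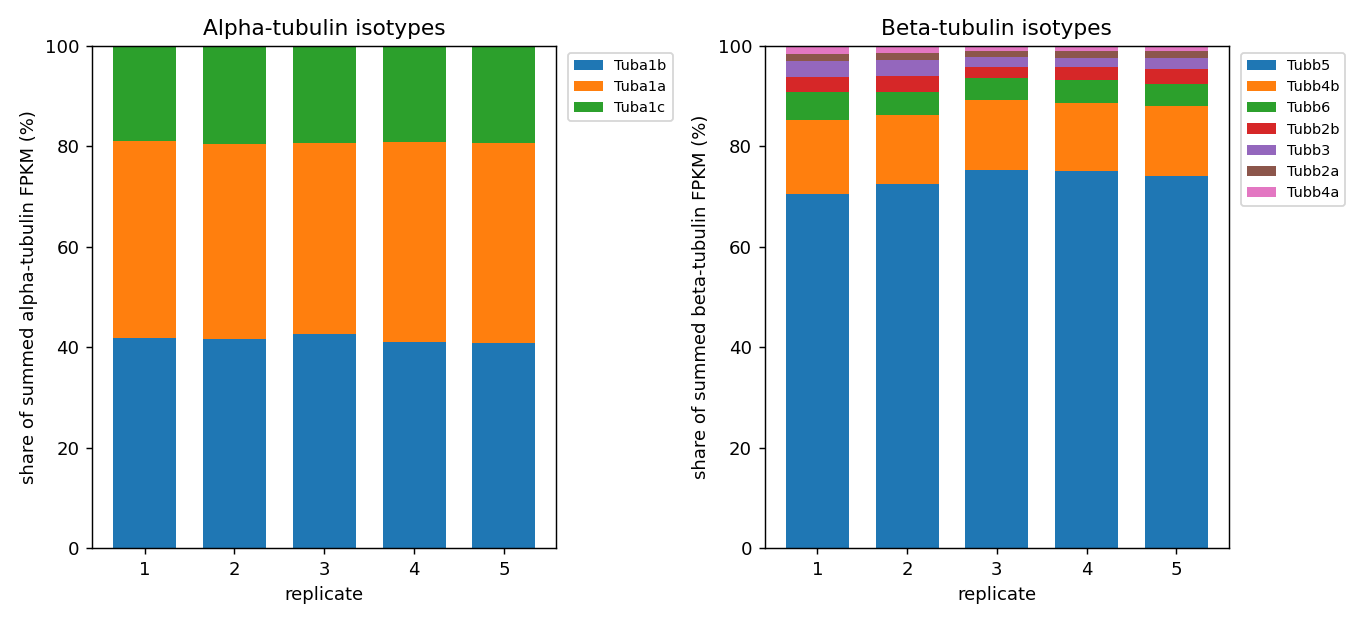
Share of each isotype in the summed FPKM of its family, by replicate. The vertical axes run from 0 to 100%, and the left panel shows alpha- and the right panel beta-tubulin genes with a level of at least 10 FPKM. Tubb5 takes 70.6% to 75.4% of the beta-tubulin FPKM, and the combined part of Tubb2a, Tubb2b, Tubb3 and Tubb4a is largest in replicates 1 and 2.

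The beta isotypes can be told apart better than the alpha isotypes. Tubb5, Tubb3, Tubb4a and Tubb6 shared no 75-base window with another annotated gene. Windows were matched exactly, so reads placed with mismatches are not covered by this count. Tubb2a shared 40.2% of its windows with Tubb2b, its neighbour on chromosome 13, and the coding sequences of the pair were identical at 96.5% of aligned bases. Tubb4b shared 33.7% with its pseudogene Tubb4b-ps1. The last 60 coding bases of 6 beta isotypes, stop codon included, follow, because the proteins diverge there, with capitals where the aligned base is not that of Tubb5.
Tubb5: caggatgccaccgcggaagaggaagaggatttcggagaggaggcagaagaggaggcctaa
Tubb4b: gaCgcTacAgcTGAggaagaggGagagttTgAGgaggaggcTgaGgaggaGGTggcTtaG
Tubb2b: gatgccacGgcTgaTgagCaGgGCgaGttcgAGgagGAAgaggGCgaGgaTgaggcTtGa
Tubb2a: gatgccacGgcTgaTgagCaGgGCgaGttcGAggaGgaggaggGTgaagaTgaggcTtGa
Tubb4a: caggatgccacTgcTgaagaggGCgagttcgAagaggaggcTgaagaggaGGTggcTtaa
Tubb3: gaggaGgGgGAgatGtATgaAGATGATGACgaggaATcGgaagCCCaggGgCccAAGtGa
Among the genes printed Tubb3 had the most unmatched bases, 29 of 60, and Tubb4a the fewest, 10. Over the whole coding sequence the share of aligned bases identical to Tubb5 was 84.6% for Tubb2a, 81.5% for Tubb3, 80.3% for Tubb6 and 73.5% for Tubb1, of which the last pair is not printed.

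**Figure D3:**
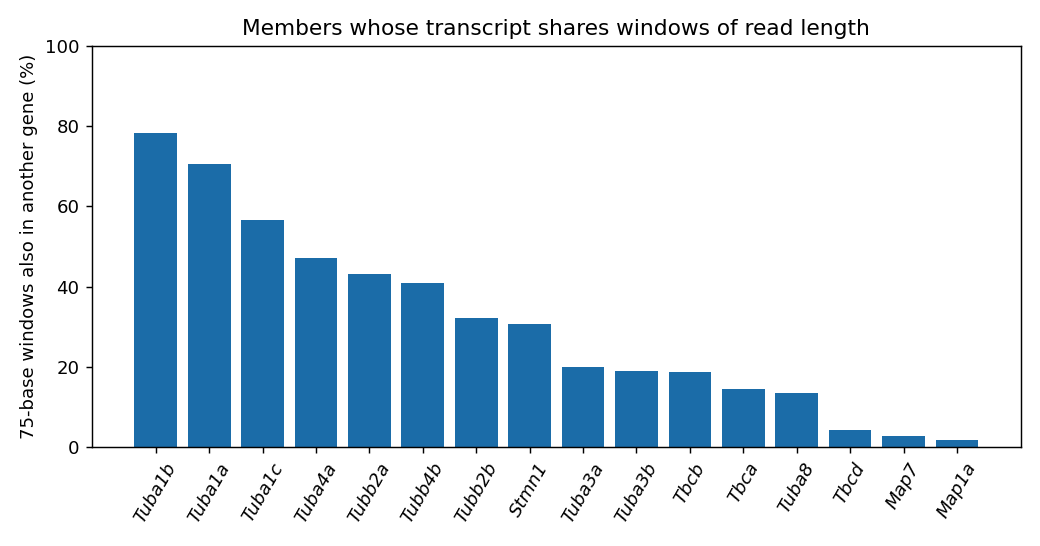
Share of the 75-base windows of a member's longest coding transcript that also occur, on either strand, in an annotated transcript of another gene. Each bar is 1 member, and only members over 1% are drawn. Tuba1b, Tuba1a and Tuba1c lead at 78.3%, 70.5% and 56.7%, and 22 of the 40 members share no window.

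Promoters of the leading isotype, Tubb5, and of the neuronal isotype, Tubb3, are printed for comparison, since neither gene shares a window with another. Each is the 250 bases before the start of the gene in RefSeq, build GRCm38.p6. In the GENCODE annotation Tubb3 starts at 123411424, within its printed stretch, so the later bases fall inside that gene. Capitals mark matches on either strand to the CCAAT box (CCAAT), the GC box (GGGCGG), the TATA box (TATAAA) or an E-box (CAGCTG).
Tubb5 promoter, chr17:35838302-35838551, minus strand: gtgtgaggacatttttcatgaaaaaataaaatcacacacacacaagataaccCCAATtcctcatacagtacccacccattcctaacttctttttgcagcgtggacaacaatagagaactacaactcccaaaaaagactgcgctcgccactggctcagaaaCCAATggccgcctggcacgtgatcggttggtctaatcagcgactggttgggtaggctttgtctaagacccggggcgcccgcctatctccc
Tubb3 promoter, chr8:123411303-123411552, plus strand: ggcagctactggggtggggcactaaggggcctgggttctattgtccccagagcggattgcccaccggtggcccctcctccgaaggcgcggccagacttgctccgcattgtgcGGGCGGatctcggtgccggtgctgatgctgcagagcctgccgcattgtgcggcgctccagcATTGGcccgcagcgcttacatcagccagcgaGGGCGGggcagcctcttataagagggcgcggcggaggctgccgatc
The Tubb5 stretch held 2 CCAAT boxes and no GC box, and the Tubb3 stretch held 1 CCAAT box and 2 GC boxes. The CCAAT box and the later GC box of Tubb3 lie past its GENCODE start. With the 50 bases after the start added, each of the 2 genes had 2 GC boxes. RefSeq windows of that full length, 300 bases, were found for 29 members (34 windows). A GC box lay in 58.8% of these windows and in 35.7% of all 32851 windows of the same length. A CCAAT box lay in 17 of the 34 and in 37.4% of all, a TATA box in 20.6% and 13.6%, and an E-box in 17.65% and 16.3%. The members' windows were richer in G and C, with a median of 59.5% against 52.7%. A match is a description of letters and not a site.

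Tubulin folding needs cofactors that take the subunits from the chaperonin and join them into a dimer. Tbca, which holds beta-tubulin, stood at 371, 429, 439, 452 and 432 FPKM. Tbcb, which acts on alpha-tubulin, stood at 184, 189, 175, 175 and 172 FPKM. Tbcd, which takes part in joining the dimer, stood at 16.7, 12.8, 19.9, 16 and 17.3 FPKM. All 3 were called above 1 FPKM, and their ranges did not overlap. Tbca exceeded Tbcb by 1.24 ± 0.15 and Tbcb exceeded Tbcd by 3.37 ± 0.26 log2 units, each in 5 of 5 libraries.

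Among the stathmins 1 gene dominated. Stmn1, the form found in most dividing cells (ENSMUSG00000028832, chromosome 4, 134468320 to 134473843), stood at 740.4, 832, 785, 832 and 844 FPKM. It held 97.2% to 99.0% of the stathmin FPKM. Of its windows 30.5% also occurred in Gm11223, so its level is uncertain by the reads of that stretch.

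The other 3 stathmins are membrane-bound and known from neurons. Stmn2 (ENSMUSG00000027500, chromosome 3, 8509360 to 8561606) stood at 13, 9.64, 4.50, 8.07 and 7.44 FPKM. Stmn3 stood at 6.36, 5.02, 3.06, 3.43 and 2.78, and Stmn4 at 1.85, 1.45, 0.630, 1.05 and 0.975. In all 3 genes replicate 1 was highest and replicate 2 second, and the lowest library was replicate 3 for Stmn2 and Stmn4 and replicate 5 for Stmn3. Stmn2 and Stmn3 were called above 1 FPKM (log2 difference 2.19, SE 0.18, limma adjusted p = 6.61e-06, and 1.31, SE 0.15, adjusted p = 7.53e-05), and Stmn4 was called neither way (0.11, SE 0.12, adjusted p = 0.417). Stmn1 exceeded Stmn2 by 6.47 ± 0.52, Stmn2 exceeded Stmn3 by 0.88 ± 0.28 and Stmn4 by 2.08 ± 0.20, each in 5 of 5 libraries. No window of Stmn2, Stmn3 or Stmn4 was shared with another gene.

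End-binding proteins recruit other factors to growing plus ends. Mapre1, which encodes EB1, stood at 279.9, 303, 275, 306 and 280.4 FPKM. Mapre2 (EB2), on chromosome 18, stood at 90.9, 104, 94.6, 114 and 102 FPKM. Mapre3 (EB3), the form enriched in neurons and muscle, stood at 0.428, 0.307, 0.480, 0.268 and 0.134 FPKM and was called below the level (log2 difference -0.60, SE 0.06, limma adjusted p = 2.32e-05). The ranges of the 3 genes did not overlap. Mapre1 exceeded Mapre2 by 1.51 ± 0.08 and Mapre3 by 7.78 ± 0.19 log2 units, both in 5 of 5 libraries. Stmn2 and Tubb3, other genes of neurons, lay above 1 FPKM in the same 5 libraries.

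In the family of tau, MAP2 and MAP4, which share repeats that bind the microtubule wall, MAP4 is the form of non-neuronal cells and the other two are those of dendrites and axons. Map2 stood at 18.9, 18.4, 9.87, 11.1 and 8.19 FPKM. Map4 stood at 16, 10.7, 11.6, 12.0 and 14.4 FPKM. Their ranges overlapped: Map2 was the higher gene in replicates 1 and 2 and Map4 in the other 3. Map4 minus Map2 was 0.02 ± 0.55 on the log2 scale (exact sign-flip permutation test, p = 0.9375, adjusted 0.9375), the 1 pair of 19 without a common direction, and the mean difference was negative without replicate 3 (-0.03), replicate 4 (-0.0032) or replicate 5 (-0.16). Mapt, the gene of tau, stood at 0.495, 0.716, 0.251, 0.346 and 0.457 FPKM and was called below the level. Map4 exceeded it by 3.25 ± 0.29 in 5 of 5 libraries.

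The MAP1 proteins are cut into a heavy and a light chain, and MAP1B is the early form in the nervous system while MAP1A is the later one. Map1b stood at 47.9, 42.9, 40.4, 40.3 and 35.4 FPKM. Map1a stood at 1.66, 0.975, 0.878, 1.38 and 1.92 FPKM, and Map1s, the form outside the nervous system, at 1.18, 0.870, 0.742, 0.597 and 0.690. Map1b was called above 1 FPKM and the other two were called neither way, but Map1a was called above without replicate 3 (log2 difference 0.30) or with libraries rescaled to an equal sum (0.41), and Map1s below without replicate 1 (-0.22). Map1b exceeded Map1a by 4.18 ± 0.34 in 5 of 5 libraries.

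Of the remaining MAPs, Map9, which acts at the spindle and in cilia, stood at 2.83, 3.26, 2.81, 3.26 and 3.21 FPKM and was called above 1 FPKM. Map7, a recruiter of kinesin-1, stood at 1.29, 0.734, 0.748, 0.839 and 0.890 and was called neither way, or below without replicate 1 (log2 difference -0.15). Map6, which makes neuronal microtubules stable in the cold, was called below at 0.773, 0.464, 0.379, 1.03 and 0.639, and the call was lost when libraries were rescaled to an equal FPKM sum (log2 difference -0.15).

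Doublecortin is the classical marker of migrating young neurons. Dcx was low, at 0.335, 0.249, 0.0764, 0.530 and 0.160 FPKM, and was called below the level (log2 difference -0.67, SE 0.07, limma adjusted p = 3.99e-05). These values stand for about 13.8 to 132 reads on its transcript of 9074 bases. Dclk1, a kinase with doublecortin repeats that is also active in dividing progenitors, stood at 4.73, 4.18, 4.35, 4.99 and 4.51 FPKM and did not overlap with Dcx. Dclk2, another kinase of the family, was called below the level at 0.773, 0.387, 0.252, 0.211 and 0.517. Dcx minus Dclk1 was -2.14 ± 0.14 and Dclk1 minus Dclk2 was 1.97 ± 0.24, each in the same direction in 5 of 5 libraries.

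The growth cone proteins were all called above 1 FPKM. Dpysl2, which encodes CRMP2, a carrier of tubulin dimers, stood at 368, 539, 463, 551 and 495 FPKM. Dpysl3, on chromosome 18, encodes CRMP4 and stood at 30.6, 32.9, 29.8, 28.1 and 31.3. Dpysl3 minus Dpysl2 was -3.93 ± 0.25 in 5 of 5 libraries. Gap43, a membrane protein of growing axons (ENSMUSG00000047261, chromosome 16, 42248442 to 42340651), stood at 11.9, 13.3, 23.4, 20.5 and 22.0 FPKM. It was lowest in replicate 1 and highest in replicate 3, the reverse of Stmn2.

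**Figure D4:**
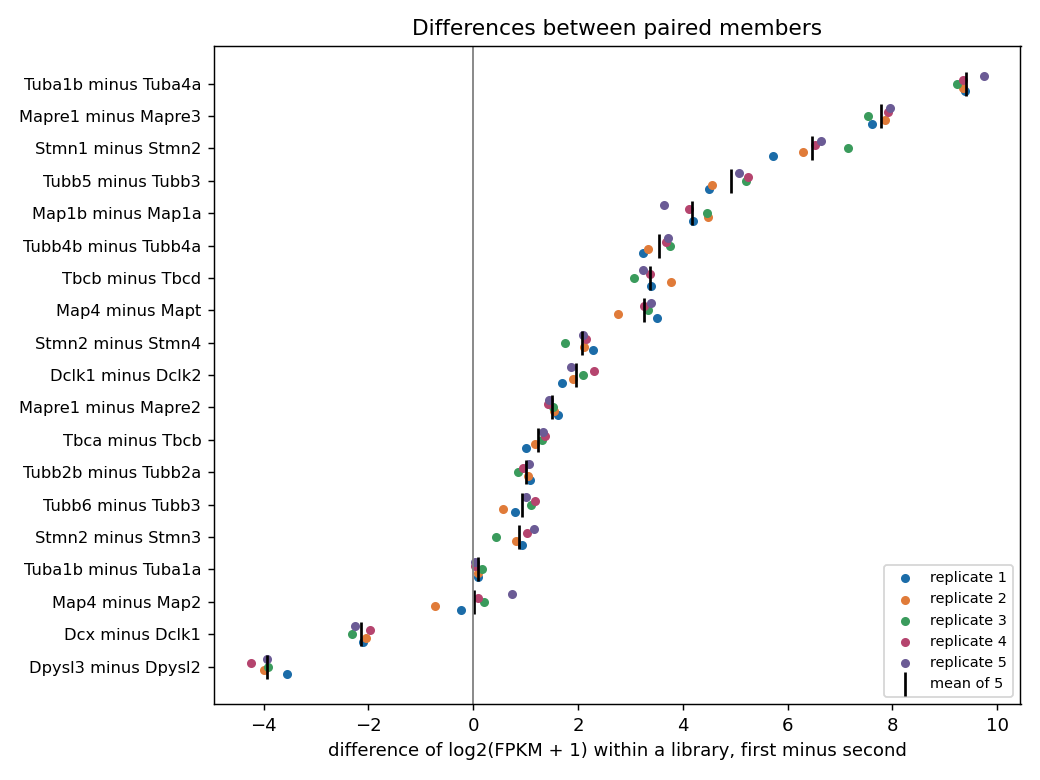
Differences between paired members within each library. The horizontal axis is the difference of log2(FPKM + 1), first gene minus second, the coloured points are the 5 replicates and the black marks their means. In 18 of the 19 pairs all 5 points lie on 1 side of 0, and Map4 minus Map2 straddles it.

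Members differed in how much they varied across libraries. The SD of log2(FPKM + 1) had a median of 0.15 over the 29 members whose mean reached 1 FPKM and of 0.16 over all 10983 such genes. Over the 12 members of at least 100 FPKM it was 0.11, and over all 1474 such genes also 0.11. Among members it was largest for Map2 (0.50), Stmn2 (0.49), Gap43 (0.42) and Stmn3 (0.41), which all lay past the 90th percentile of all genes (0.33). Stmn4 (0.31), Tubb3 (0.29), Map1a (0.27) and Tubb2b (0.26) came next, below that percentile. Other members known from neurons or growth cones varied less, with 0.15 for Map1b, 0.08 for Dclk1 and 0.08 for Dpysl3.

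The deviations of these genes from their own means were not alike. Stmn2 deviated by 0.62 in replicate 1 and by -0.73 in replicate 3 on the log2 scale, Stmn3 by 0.57 and -0.29, Map2 by 0.55 and -0.32, and Tubb3 by 0.19 and -0.32. Gap43 deviated by -0.52 and 0.39. Replicate 1 was highest for 7 of the 29 members (24.1%, against 16.4% of all genes) and lowest for 10 (34.5%, against 35.0%). Replicate 3 was highest for 2 (6.90%, against 21.9%) and lowest for 10 (34.5%, against 20.7%). The highest and the lowest library of Stmn2, Stmn3, Stmn4, Map2, Tubb3 and Gap43 were the same when libraries were rescaled to an equal FPKM sum or by their median ratio. Among all 29 members the highest library stayed the same for 17 under the first rescaling, which moved the median of all genes by 0.22 to 0.39, and for 27 under the second.

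**Figure D5:**
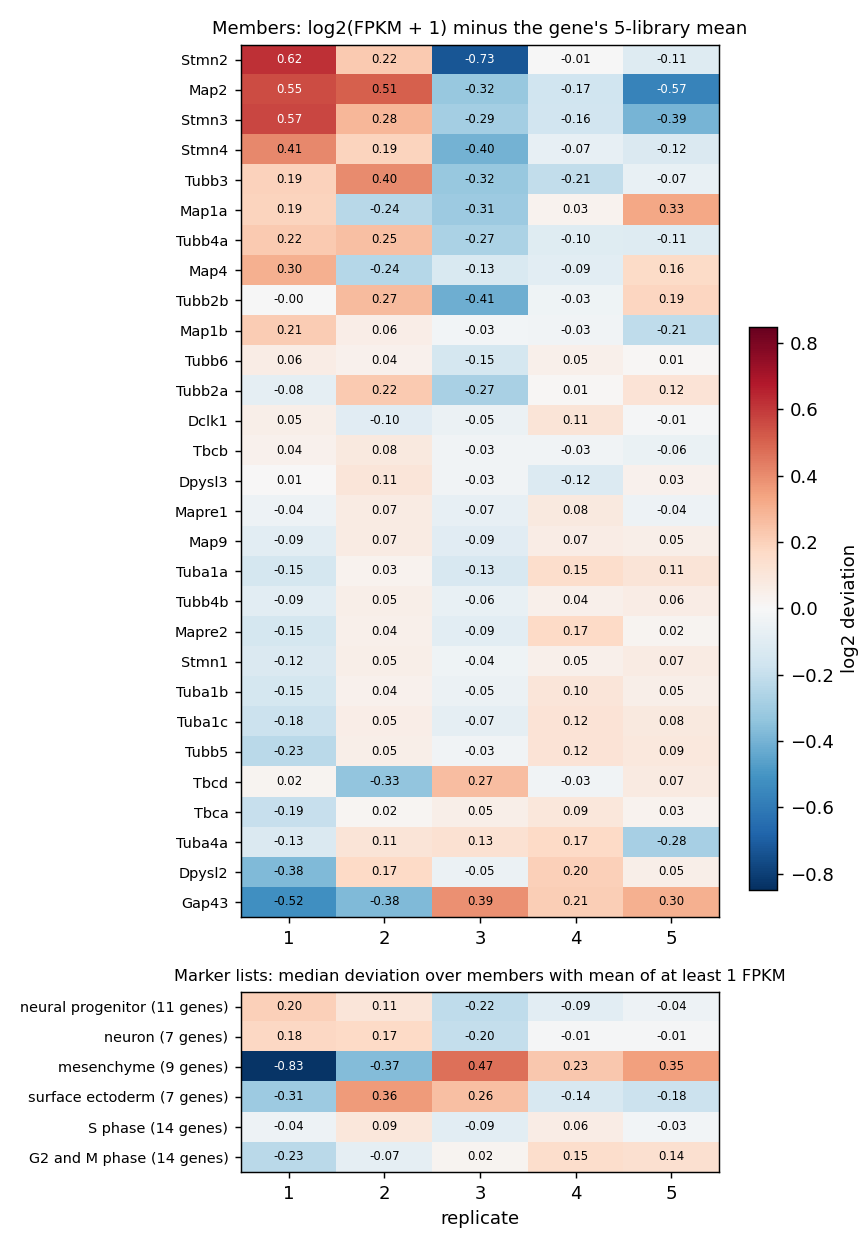
Deviation of each member whose mean reached 1 FPKM from its own 5-library mean on the log2(FPKM + 1) scale (upper panel, ordered by replicate 3 minus replicate 1) and the median deviation of 6 marker lists (lower panel). Red is higher and blue lower than the mean, and the number in each cell is the value. Stmn2 falls from 0.62 in replicate 1 to -0.73 in replicate 3, Gap43 goes from -0.52 to 0.39, and the mesenchyme list goes from -0.83 to 0.47.

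Markers of cell types moved over the same libraries. The neuron list, 5 of 14 called above 1 FPKM and 6 below, summed to 75.5, 71.9, 51.5, 59.2 and 59.8 FPKM, so its highest and lowest libraries were those of Stmn2. Most of this sum was Uchl1 alone, at 54.7, 52.5, 37.5, 40.6 and 45.4 FPKM. The median deviation of the list's 7 genes of mean 1 FPKM or more had the same ends (0.18 and -0.20). Single genes differed: Elavl4 was highest in replicate 4 and Syp in replicate 2, and both were lowest in replicate 5. Sncg was listed at 0 in replicates 1 and 2. The neural progenitor list summed to 325, 319, 268, 303 and 299 FPKM, also highest in replicate 1 and lowest in replicate 3. The median deviation of its 11 genes of mean 1 FPKM or more had the same ends (0.20 and -0.22). Not every gene followed: Vim was lowest in replicate 2 (44.0) and highest in replicate 4 (63.1), and Nes lowest in replicate 2 (2.73) and highest in replicate 5 (4.24). The mesenchyme list, 8 of 12 called above and 3 below, summed to 39.5, 67.3, 142, 116 and 119 FPKM, and its lowest and highest libraries were those of Gap43. In the neural crest list 2 of 6 genes were called above and 3 below, and it summed to 13.2, 21.6, 37.6, 27.4 and 31.5 FPKM with the 5 libraries in the same order as in the mesenchyme list and in Gap43. No gene of these 4 lists was listed at 0 in all 5 libraries, though the defining crest marker Foxd3 had a mean of 0.00398 FPKM and Sox10 of 0.222. Their part in the levels of Stmn2, Tubb3, Map2 or Gap43 was not tested. The count of genes above 0 also differed by library, at 18456, 17336, 16275, 16940 and 16830 in replicates 1 to 5. It ranked the 5 libraries as Stmn2 and Stmn4 did, and in the reverse order of Gap43 and the mesenchyme list. Estimated reads of a library ranked them otherwise, with the fewest in replicate 3 and the most in replicate 4. The part of these library traits in the levels was not tested either.

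The peripheral neuron list had 3 of 9 genes called above 1 FPKM and 6 below, and summed to 12.9 to 16.1 FPKM. Prph, a defining filament of these neurons, was near 0 at 0.0203 ± 0.0342 FPKM. The surface ectoderm list (7 of 9 above, 1 below) summed to 119, 184, 169, 126 and 124 FPKM. It was highest in replicate 2, as were Tubb3, Tubb2a and Tubb2b. Its second highest library was replicate 3, in which those genes were lowest. The endothelium list (1 of 6 above, 2 below) summed to 5.51 to 12.0 FPKM and the blood list, with 2 of 6 below, to 2.77 to 9.54. All 14 S-phase genes and all 14 genes of the G2 and M phases were called above the level, led by Rrm2 at 1719.7 ± 119 and Cdk1 at 489 ± 89.6 FPKM. The summed G2 and M genes ran from 1956 FPKM in replicate 1 to 2689 in replicate 4, the libraries in which Tuba1a, Tuba1b, Tuba1c, Tubb5 and Dpysl2 as deposited also had their lowest and highest values. Those libraries had the lowest and highest FPKM sums too (747034 and 847625), and were most often the lowest (35.0%) and the highest (27.0%) over all genes. Rescaled to an equal sum, none of the 5 genes was highest in replicate 4: Dpysl2 was highest in replicate 2 and the other 4 in replicate 5. Rescaled by median ratio, all 5 genes stayed highest in replicate 4. The G2 and M sums were not rescaled, so the rescaled orders of the 5 genes were not compared with them. The part of the cell cycle genes in these levels was not tested.

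The wider microtubule machinery was mostly present. Of 92 other microtubule genes measured, 77 were called above 1 FPKM and 13 below, with a median level of 16.2 FPKM. Over all genes tested 52.3% were called above and 41.4% below. The gamma-tubulin ring, which nucleates microtubules, had all 12 genes above the level when the delta and epsilon tubulins were counted with it, from Tubg1 at 119 ± 11.2 to Tubg2 at 9.34 ± 0.699 FPKM. Augmin, which branches new microtubules from old ones in the spindle, had all 8 above, from Haus1 (135 ± 5.52) to Haus4 (12.2 ± 1.64). All 9 spindle MAPs were above, from Tacc3 (198 ± 7.84) to Tacc2 (12.0 ± 0.815). So were all 7 severing enzymes, which cut the polymer, from Fignl1 (158 ± 14.4) to Katnal1 (4.68 ± 0.627).

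Of the proteins at plus and minus ends 9 of 11 were above and 2 below, with the polymerase Ckap5 at 98.3 ± 10.4 FPKM and Clip2 at 0.15 ± 0.0569. Among other folding factors 10 of 11 were above, led by the prefoldin subunit Pfdn5 (554 ± 29.2), and Tbcc was below at 0.397 ± 0.137. Of the enzymes that modify tubulin 12 of 20 were above and 7 below, beside 52.3% above and 41.4% below over all genes. The deacetylase Hdac6 was highest at 56.2 ± 8.70 FPKM, and the polyglutamylase Ttll6 was listed above 0 in replicate 1 alone, at 0.0146. In a list of other MAP, doublecortin and CRMP genes, which also holds the GAP43-like membrane proteins Marcks, Marcksl1 and Basp1, 10 of 14 were above and 3 below, from Marcks (103 ± 20.3) to Dclk3, which was listed at 0.0531, 0, 0, 0.0214 and 0.0131.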

How the data were processed

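RNA of 5 libraries of mouse neuroepithelial cells, 1 group, was analysed. The authors deposited 1 table of FPKM, fragments counted for each kilobase of transcript and each 1000000 reads mapped, with 1 value for each of 21801 genes and each library. Cuffdiff 2.2.1, TopHat2 2.0.11, CASAVA 1.8 and cutadapt are listed, with build mm10, in the submitters' processing notes. The treatment of reads with several matches is not given in the sources used here. Value columns were matched to samples by replicate number.

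Levels were tested as log2(FPKM + 1) with limma 3.58.1 in R 4.3.3, for every gene above 0 in at least 1 library (19706 genes). An intercept over the 5 libraries was tested two-sided against 1 FPKM, with a variance trend, and p-values were adjusted by Benjamini-Hochberg over all genes tested. Calls above or below needed an adjusted p under 0.05. The script was tested on simulated data. Paired members were compared within libraries by an exact two-sided sign-flip permutation test, adjusted over 19 pairs.

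Reads behind the unit were estimated from the steps between values under 0.15 FPKM of genes with 1 annotated transcript longer than 800 bases, taking 200 bases off each length. Coordinates, transcripts and coding sequences came from GENCODE M21 (mm10), to which all 40 members matched by gene ID, and promoter windows from RefSeq (GRCm38.p6). Coding sequences were aligned globally with Biopython 1.88. Every member was reported. Of each other list the highest and lowest genes were named, and of each marker list the highest, and any further gene named was picked with its values in view. The members, lists and pairs were chosen with earlier results of these data known. Alternatives were pseudocounts of 0.5 and 0.1, filters, 2 rescalings, levels of 0.5 and 2 FPKM, limma without the trend or with robust variance, and leaving out each library.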

Additional observations from a re-analysis of the deposited data

Results flagged for a closer look

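In 75 sets of 5 library values (members whose mean reached 1 FPKM, pair differences, family sums and shares), 4 had 1 library set apart from the other 4 by more than Dixon's 95% critical value of 0.71 for the gap over the range. Chance flags about 1 in 20 such sets. Tubb6 was low in replicate 3, at 105 FPKM. Tbca was low in replicate 1, at 371 FPKM. The share of Tubb6 in the summed beta-tubulin FPKM was high in replicate 1, at 5.41%. The share of Tubb1 was 0.00135% in replicate 5 and 0 in the other libraries, which is the value of about 1 read.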

How the results depend on the processing

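Of the 90 alternative values of the 6 counts, 88 lay within 1.5 times the main count. With genes under a mean of 0.1 FPKM left out, 3495 were called below the level, as fewer low genes were tested, and against 2 FPKM 14 members were called below. Single members near the level changed side with it. Against 2 FPKM the log2 difference was -0.34 for Tuba4a, -0.48 for Stmn4 and -0.36 for Map1a. Against 0.5 FPKM it was 0.27 for Map1s, 0.33 for Map7 and 0.13 for Map6. The difference of Map4 minus Map2 ran from -0.16 to 0.21 when 1 library was left out, and was negative without replicate 3 (-0.03), replicate 4 (-0.0032) or replicate 5 (-0.16). The other 149 alternative values of pair differences kept their sign. No paired analysis was possible because with 1 group there is no second group whose libraries could be paired, and members were instead compared within a library. Tuba3a, Tuba3b and Tubb1 rest on so few reads that this depth could not show a difference among them.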

Other observations

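Genes akin to Gap43 and other CRMP genes, named here after their values were seen, ranked the libraries in different ways. Marcks, Marcksl1 and Basp1 encode membrane proteins that, like GAP43, bind the inner face of the plasma membrane. Marcks stood at 79.8, 88.4, 112, 132 and 104 FPKM in replicates 1 to 5, Marcksl1 at 28.2, 25.7, 41.4, 30.2 and 38.3, and Basp1 at 8.16, 8.16, 10.7, 9.16 and 10.1. In each of the 3 genes, as in Gap43, replicates 1 and 2 were the lowest libraries. The CRMP genes Crmp1 (9.17, 7.53, 7.89, 6.82 and 6.98 FPKM), Dpysl4 (22.2, 19.8, 14.6, 16.7 and 16.2) and Dpysl5 (18.8, 14.6, 12.7, 9.54 and 12.7) were each highest in replicate 1, the library in which Dpysl2 was lowest, while Dpysl3, also of this family, was highest in replicate 2 (32.9) and lowest in replicate 4 (28.1).

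Ttc5, which takes part in the decay of tubulin mRNA when free tubulin is in excess, stood at 94.1, 107, 92.9, 110.2 and 102 FPKM, above 1 FPKM in 5 of 5 libraries.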
